A study of Homo sapiens with 36 samples.

Results

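Desmosomes are button-like junctions that hold neighbouring epithelial and heart muscle cells together. The 9 genes described here encode proteins found in them, of which PKP4 is also found elsewhere in the cell. The desmosomal cadherins DSG2, DSC2 and DSC3 cross the membrane. The armadillo proteins JUP (plakoglobin), PKP1, PKP2, PKP3 and PKP4 (plakophilins) form a plaque at the cadherin tails. DSP (desmoplakin) ties that plaque to intermediate filaments. The members were taken by gene name, 9 of the 60628 gene rows in the table. DSG2 was selected on its levels in these libraries (seen in T-ALL lines, not in CTCL lines), and PKP1 on its high level in MOLT4 knockdown libraries. Those contrasts are therefore given as descriptions without a test.

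GATA3, a zinc finger transcription factor of the T lineage, was targeted by a short hairpin RNA in 7 human T cell lines, and cells with a scrambled hairpin were the controls. Polyadenylated RNA was sequenced in 18 knockdown and 18 control libraries. The T-ALL (T cell acute lymphoblastic leukaemia) lines were SUP-T1 (3 knockdown, 3 control), CCRF-CEM (3 and 3), MOLT4 (2 and 2) and THP6 (2 and 3), which the labels call acute lymphoblastic leukaemia. The CTCL lines, labelled cutaneous T lymphocytes and read here as cutaneous T cell lymphoma, were H9 (3 and 2), MyLa (Myla CD4+ in the labels, 3 and 3) and Mac1 (2 and 2). The labels give the genotype of the scrambled controls as WT, and do not say whether the cells were clones or pools, whether replicates were separate cultures, or whether all replicates carried 1 hairpin. P-values thus reflect library to library variation that may be technical. A level is the mean over a culture, in which fewer cells with the transcript and less transcript per cell cannot be told apart.

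Library totals ran from 18.62 M to 50.63 M expected counts. GATA3 itself was lower in knockdown than in control libraries, without overlap, in 6 lines. As fitted, GATA3 in controls was 1.64 times its knockdown level in MyLa, 1.95 in CCRF-CEM and 2.08 in THP6. It was 2.22 times that level in Mac1, 2.38 in H9 and 2.74 in MOLT4. In SUP-T1 it was higher in the libraries labelled knockdown, at 81.7 ± 4.73 CPM (read counts scaled by the library total after TMM scaling) against 24.1 ± 0.394 CPM in those labelled control (SD, n = 3 each). Directions in SUP-T1 follow its labels below. The cell line field of its 6 libraries runs from SUP-T1 to SUP-T6, whereas all their titles say SUP-T1, and the titles were used. In THP6, knockdown 2 stood apart from knockdown 1 for several genes below, and values without it are given there. Of 8 T cell markers, 7 or 8 reached 1 CPM in H9 and the T-ALL lines, 4 in MyLa and 2 in Mac1, where CD3D, CD3E, CD3G and LCK had no count in any library.

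Desmogleins and desmocollins make up the adhesive part of the junction by binding each other between cells. DSG2 is the most widely distributed desmoglein, and it also occurs on cells that form no desmosomes. Plakoglobin is shared with adherens junctions and is a close relative of beta-catenin. PKP4 (also p0071) differs from the other plakophilins in that it is also found at adherens junctions and in the cytoplasm.

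Bases near the start of 3 members are shown because they are the members selected on their values (DSG2 and PKP1) and the one called lower in CCRF-CEM (JUP). Windows from RefSeq (GRCh38.p14), running from 250 bases before to 50 after a start, were found for 7 of the 9 members. They were searched on both strands for GATA preceded by A or T and followed by A or G. Of 10 member windows 2 held this word, those of JUP (AGATAG) and DSC3 (TGATAA), and of all 35116 windows 8769 (25%) did. The DSG2 and PKP1 windows held none. Printed in lower case is the part of each window up to the base before the GENCODE gene start, chr18:31497927-31498042 for DSG2 and chr1:201283256-201283451 for PKP1, both on the plus strand. The JUP stretch (chr17:41786807-41786836, minus strand) has its word in capitals, starting at base -113 from 1 of its RefSeq starts, and lies inside the gene as GENCODE bounds it. A match or its lack is a property of these letters and says nothing of binding.
DSG2: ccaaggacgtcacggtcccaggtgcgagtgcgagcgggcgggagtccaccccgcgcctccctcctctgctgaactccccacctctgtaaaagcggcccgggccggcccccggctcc
PKP1: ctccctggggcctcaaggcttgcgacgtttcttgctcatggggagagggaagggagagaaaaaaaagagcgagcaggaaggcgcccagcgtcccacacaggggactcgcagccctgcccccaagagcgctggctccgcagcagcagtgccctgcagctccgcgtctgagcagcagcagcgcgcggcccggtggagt
JUP: gacagtcaggcgAGATAGccagtgagctcg

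The T-ALL lines held transcripts of part of the junction. DSG2 and PKP4 were present in all 4, JUP was present at lower and more varied levels, and PKP1 reached 1 CPM in SUP-T1 and MOLT4. Desmocollins and desmoplakin, without which no typical desmosome is built, were at or near 0 in every line. DSC3 (ENSG00000134762, chromosome 18, 30990008 to 31042815, minus strand) had no count in any of the 36 libraries, and a count of 0 allows up to 3 counts, which is 0.0730 to 0.162 CPM depending on the library (counting error alone). DSC2 (ENSG00000134755, chromosome 18, 31058840 to 31102522, minus strand), the desmocollin of simple epithelia and heart, had 2 counts in all. DSP (ENSG00000096696, chromosome 6, 7541575 to 7586717, plus strand) had 29 counts in all, of which MOLT4 knockdown libraries held 6 and MOLT4 controls 17. There it stood at 0.137 and 0.0696 CPM in the knockdown libraries, against 0.288 and 0.298 CPM in the controls. These 3 genes did not pass the filter on low counts, so 6 of the 9 members were tested.

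**Figure D1:**
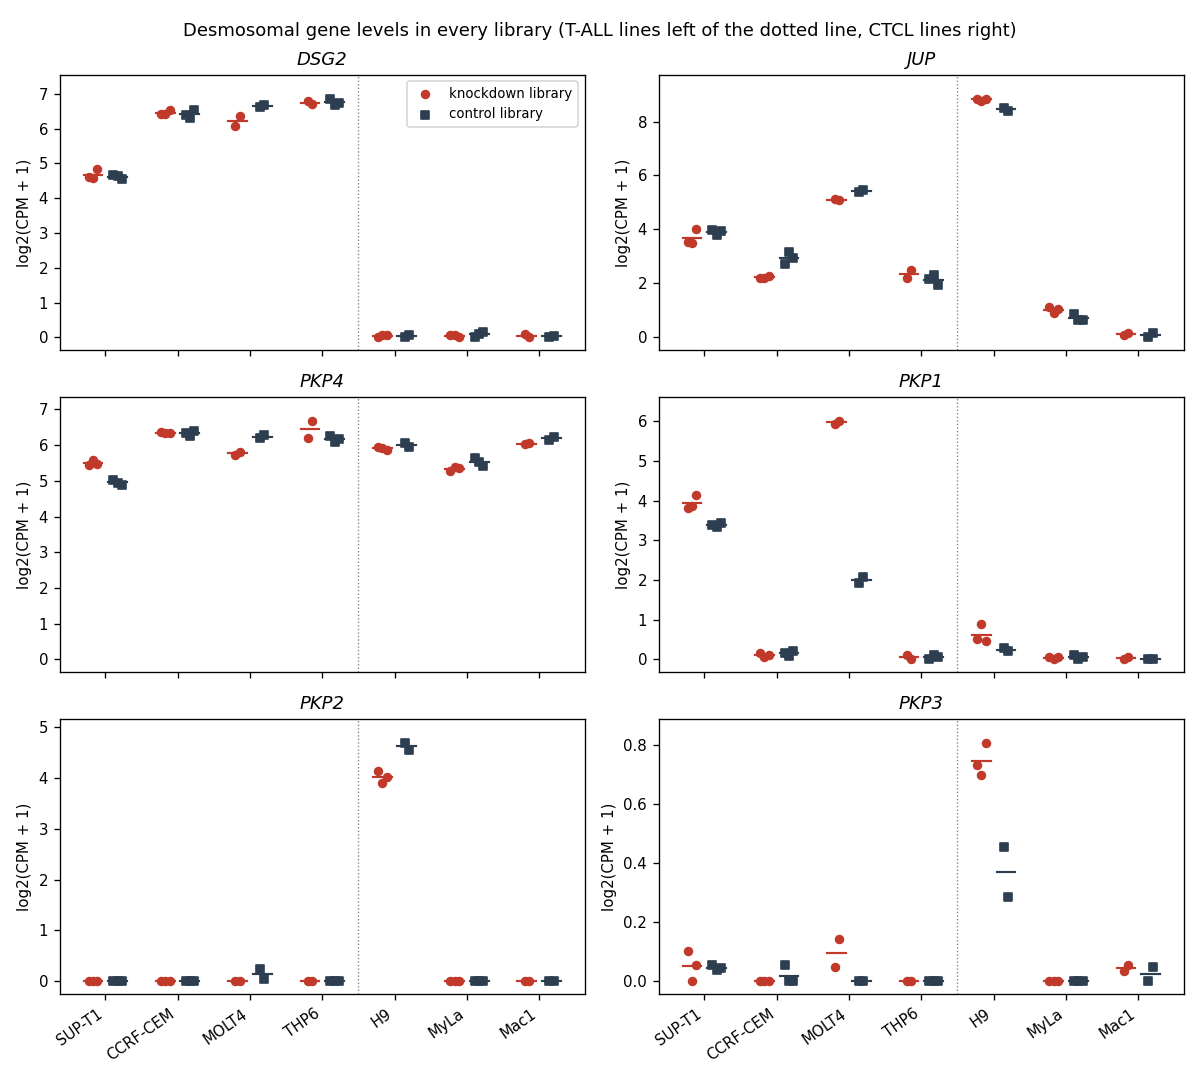
Level of 6 members in each library as log2(CPM + 1), with knockdown libraries as red circles, control libraries as dark squares and group means as bars. T-ALL lines stand left of the dotted line. DSG2 lies above 22 CPM in every T-ALL library and under 0.2 CPM in every CTCL library, while PKP4 lies above 28 CPM in every library.

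DSG2 (ENSG00000046604, chromosome 18, 31498043 to 31549008, plus strand, GRCh38), the desmoglein of simple epithelia and heart, was highest in THP6 controls at 107.4 ± 7.22 CPM (n = 3). It followed at 99.2 ± 2.60 CPM in MOLT4 (n = 2), 84.6 ± 6.29 in CCRF-CEM (n = 3) and 23.6 ± 0.969 in SUP-T1 (n = 3). The ranges of the control libraries did not overlap between neighbours in that order. No CTCL library held more than 3 counts of DSG2, and its highest CTCL value was 0.118 CPM in MyLa control 3. The gene shares exon bases with DSG2-AS1 on the other strand, which reached at most 0.294 CPM in any library.

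No change of DSG2 was called in the 3 T-ALL lines that were tested. GATA3 was lower in the knockdown libraries of CCRF-CEM and THP6, but higher in those labelled knockdown in SUP-T1. SUP-T1 had 23.4, 23.1 and 27.7 CPM in libraries labelled knockdown, against 24.4, 23.9 and 22.5 CPM in those labelled control (log2 fold change 0.07, SE 0.112, edgeR adjusted p = 0.815). CCRF-CEM had 84.5, 84.3 and 92.1 CPM in knockdown libraries, against 83.9, 78.7 and 91.2 CPM in controls (0.04, SE 0.106, edgeR adjusted p = 0.958). THP6 had 109.6 and 103.5 CPM in knockdown libraries, against 115.5, 101.8 and 104.8 CPM in controls (-0.01, SE 0.118, edgeR adjusted p = 1). The groups overlapped in all 3 lines. MOLT4 stood apart from these, with 66.1 and 81.3 CPM in knockdown libraries and 97.3 and 101 CPM in controls. Both MOLT4 knockdown libraries lay below both controls, a log2 difference of -0.43 (SE 0.13) that is a description. How many of all genes separate so with 2 libraries per arm was not counted, here or for other genes in MOLT4. Among the lists below, the MOLT4 median was -0.519 for adherens junction genes and -0.81 for plakins and linkers. It was 0.505 for filament genes and 0.632 for T cell markers, and 0 over all tested genes.

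JUP (ENSG00000173801, chromosome 17, 41754604 to 41786931, minus strand), the plakoglobin that links cadherin tails to desmoplakin, was highest not in a T-ALL line but in H9. H9 controls had 350.9 ± 19.6 CPM (n = 2), and MOLT4 controls followed at 42.2 ± 1.21 CPM (n = 2). SUP-T1 (13.9 ± 0.921 CPM), CCRF-CEM (6.72 ± 1.196 CPM), THP6 (3.39 ± 0.583 CPM) and MyLa (0.644 ± 0.161 CPM) came next, with 3 controls each. Mac1 controls had 0 and 0.104 CPM. Control ranges did not overlap between neighbours in this order.

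JUP fell in CCRF-CEM, to 3.54, 3.63 and 3.82 CPM in knockdown libraries, against 5.60, 7.98 and 6.58 CPM in controls. Every knockdown library lay below every control, with a log2 fold change of -0.86 (SE 0.158, edgeR adjusted p = 0.00042). JUP was the 1 member called in CCRF-CEM of 6 tested (0 higher, 1 lower). Of all tested genes there, 3.00% were called higher and 5.43% lower. No other member had an unadjusted p under 0.05, against 19.5% of all tested genes that did. The call held under all 12 alternatives, with adjusted p from 8.2e-09 to 0.00846. The summed level of 10 epithelial markers was also lower in CCRF-CEM, at 4.02 to 4.79 CPM in knockdown libraries and 6.22 to 6.74 CPM in controls, with KRT19 and CDH1 at 0 in both arms. Its part in the JUP result was not tested.

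In the other lines JUP was not called. H9 had 457.4, 433.8 and 459.7 CPM in knockdown libraries, against 364.7 and 337.0 CPM in controls. The H9 groups did not overlap, yet the log2 fold change of 0.36 (SE 0.128) had an edgeR adjusted p of 0.191. In H9, 0 of 6 tested members were called, against 0.852% of all tested genes called higher and 0.965% lower. At an unadjusted p under 0.05 there were 4 members in H9 (JUP, PKP1, PKP2 and PKP3), where 10.6% of all tested genes had such a p, and DESeq2 called 0. PKP2 and PKP3 passed the filter on low counts through H9, and PKP1 and PKP3 were under 1 CPM there. The 4 are therefore not to be weighed against the 10.6%. MyLa had 1.19, 0.863 and 1.081 CPM of JUP in knockdown libraries, against 0.830, 0.552 and 0.551 CPM in controls (0.69, SE 0.293, edgeR adjusted p = 0.346). SUP-T1 had 10.5, 10.2 and 15.1 CPM in libraries labelled knockdown, against 14.6, 12.9 and 14.3 CPM in those labelled control, which overlapped (-0.22, SE 0.13, edgeR adjusted p = 0.281). Leaving out 1 library moved the SUP-T1 value both ways, to -0.43 without knockdown 3 (edgeR adjusted p = 0.0222), -0.14 without knockdown 1 (0.649) and -0.12 without knockdown 2 (0.701). THP6 had 3.57 and 4.57 CPM in knockdown libraries, against 3.42, 3.97 and 2.80 CPM in controls (0.25, SE 0.184, edgeR adjusted p = 0.469). In MOLT4 both knockdown libraries, at 33.8 and 33.1 CPM, lay below both controls, at 41.3 and 43.0 CPM (log2 difference -0.33, SE 0.145).

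The JUP response differed between lines. An F test of equal responses over the 6 lines other than MOLT4 gave an edgeR adjusted p of 0.000329, and 27.1% of all tested genes passed that test. Leaving out SUP-T1 gave 0.000598, and leaving out SUP-T1 and THP6 knockdown 2 together gave 0.000286.

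**Figure D2:**
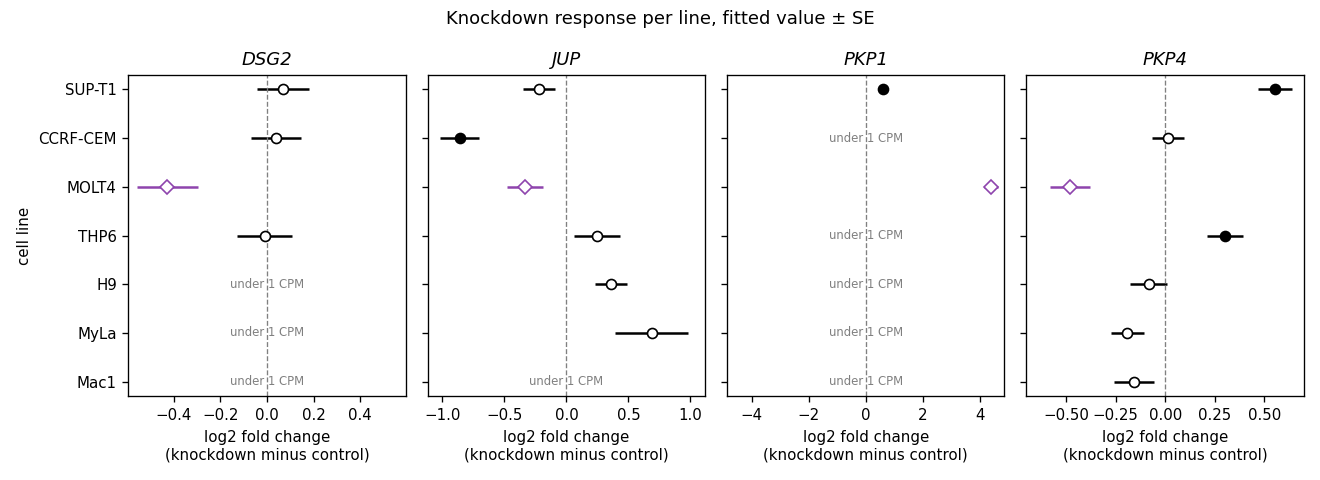
Fitted knockdown minus control log2 fold change ± SE of 4 members in each line, where the line's mean reached 1 CPM in either arm. Filled circles passed an adjusted p of 0.05, open circles did not, and purple diamonds are MOLT4, which was not tested. JUP is lower in CCRF-CEM (-0.86), PKP4 is higher in SUP-T1 (0.56), and PKP1 has its highest value in MOLT4 (4.37).

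PKP1 (ENSG00000081277, chromosome 1, 201283452 to 201332993, plus strand), a plakophilin of stratified epithelia that strengthens desmosomes, was 20.7 times as high in MOLT4 knockdown libraries as in controls. The knockdown libraries held 60.6 and 63.7 CPM (1770 and 1832 counts), against 2.77 and 3.21 CPM (77 and 97 counts) in controls. The replicates of each arm lay close together, and the log2 difference was 4.37 (SE 0.249). The 10 epithelial markers summed to 18.1 to 18.4 CPM in MOLT4 knockdown libraries and 24.6 to 25.1 CPM in controls. EPCAM, KRT19, CDH1 and ST14 had no count in the knockdown libraries. They averaged under 1 CPM in controls, where CDH1 had no count either. KRT8, KRT18, CLDN4 and ESRP1 of this list reached a mean of 1 CPM in both arms. KRT5, a keratin of stratified epithelia outside that list, had 1.04 and 1.16 CPM (64 counts in all) in MOLT4 knockdown libraries, against 0.0360 and 0.0993 CPM (4 counts) in controls. KRT10, a keratin of upper epidermis, averaged 52.2 ± 0.686 CPM in knockdown libraries and 36.8 ± 3.24 CPM in controls (SD, n = 2 each). It averaged at least 24.15 CPM in both arms of every other line. KRT14, the usual partner of KRT5, had no count in either arm. KRT8 and KRT18 went the other way. KRT8 averaged 5.81 ± 0.493 CPM in knockdown libraries and 8.26 ± 0.529 CPM in controls. KRT18 averaged 6.99 ± 0.252 CPM in knockdown libraries and 8.62 ± 0.0287 CPM in controls. The 8 T cell markers summed to 2896 to 2979 CPM in MOLT4 knockdown libraries and 1907 to 1940 CPM in controls, and the part of these genes in the PKP1 result was not tested.

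SUP-T1 had the highest PKP1 level among controls, and its libraries labelled knockdown were higher still. They held 13.2, 13.5 and 16.5 CPM, against 9.43, 9.05 and 9.92 CPM in those labelled control, without overlap. The log2 fold change was 0.60 (SE 0.178, edgeR adjusted p = 0.0179). The call was lost without control 1 (0.60, adjusted p = 0.0612), without control 2 (0.58, adjusted p = 0.0758) and without knockdown 3 (0.49, adjusted p = 0.104; edgeR throughout). Epithelial markers summed to 3.72 to 4.43 CPM in SUP-T1 libraries labelled knockdown and 4.30 to 4.89 CPM in those labelled control. PKP1 was thus higher beside lower GATA3 in MOLT4 and beside higher GATA3 in SUP-T1.

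Elsewhere PKP1 was under 1 CPM. H9 had 0.414, 0.842 and 0.375 CPM in knockdown libraries, against 0.222 and 0.146 CPM in controls (edgeR adjusted p = 0.106). CCRF-CEM, THP6, MyLa and Mac1 had at most 0.16 CPM in any library. No difference between the 6 lines was called for PKP1 (edgeR adjusted p = 0.298).

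**Figure D3:**
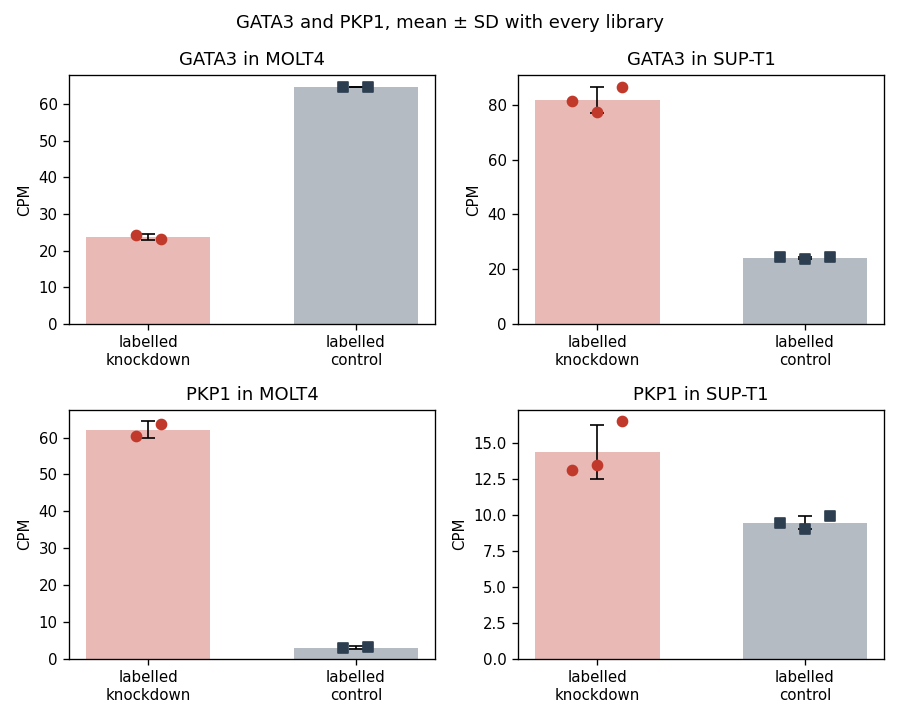
GATA3 (top) and PKP1 (bottom) in MOLT4 and SUP-T1 in CPM, with bars for the mean, whiskers for the SD and points for each library. In MOLT4 GATA3 averaged 23.6 CPM in knockdown libraries and 64.7 CPM in controls, while PKP1 averaged 62.1 and 2.99 CPM. In SUP-T1 both genes were higher in the libraries labelled knockdown.

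PKP4 (ENSG00000144283, chromosome 2, 158456964 to 158682879, plus strand) was the member found in every library. CCRF-CEM (80.0 ± 3.51 CPM), MOLT4 (74.6 ± 3.45 CPM), Mac1 (72.3 ± 3.04 CPM) and THP6 (71.1 ± 4.24 CPM) had the highest control levels, and neighbours among them overlapped. H9 (62.9 ± 3.61 CPM), MyLa (45.3 ± 3.36 CPM) and SUP-T1 (30.2 ± 1.49 CPM) followed, each apart from the next. Its antisense partner PKP4-AS1, with which it shares exon bases, reached at most 0.209 CPM.

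PKP4 rose in the SUP-T1 libraries labelled knockdown, which held 42.7, 46.6 and 43.6 CPM, against 31.7, 29.98 and 28.8 CPM in those labelled control. The groups stood well apart, with a log2 fold change of 0.56 (SE 0.0843, edgeR adjusted p = 1.55e-05). This held under all 12 alternatives, with adjusted p from 2.4e-08 to 0.00097. PKP1 and PKP4 were the 2 of 6 tested members called in SUP-T1, both higher. PKP2, also among the 6, had no count there. Of all tested genes, 8.14% were called higher and 8.57% lower. The same 2 members had an unadjusted p under 0.05, as did 27.2% of all tested genes. T cell markers moved the other way in the same libraries, with 6 of 8 called lower. They summed to 2209 to 2433 CPM in libraries labelled knockdown and 2972 to 3113 CPM in those labelled control, and their part in the PKP4 result was not tested.

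In THP6, PKP4 was called on the strength of 1 library. Knockdown 1 had 73.0 CPM and knockdown 2 had 102 CPM, against 75.5, 67.1 and 70.6 CPM in controls, so the groups overlapped. The log2 fold change was 0.30 (SE 0.091, edgeR adjusted p = 0.0409). Without knockdown 2 it was 0.04 (edgeR adjusted p = 0.988), and the call was also lost without control 2 (0.27, adjusted p = 0.147) or control 3 (0.30, adjusted p = 0.0966). It was lost as well with the replicate block (0.28, edgeR adjusted p = 0.198), with no filter on low counts (0.0764) and in a fit of THP6 alone (0.753). PKP4 was the 1 member called in THP6 of 6 tested, where 5.56% of all tested genes were called higher and 1.84% lower. No other member had an unadjusted p under 0.05, against 21.8% of all tested genes that did.

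PKP4 was lower in all knockdown libraries than in all controls of MyLa and Mac1 without being called. MyLa had 37.9, 41.3 and 39.8 CPM in knockdown libraries, against 48.6, 45.3 and 41.9 CPM in controls (-0.19, SE 0.0841, edgeR adjusted p = 0.378). Mac1 had 64.0 and 65.6 CPM in knockdown libraries, against 70.2 and 74.5 CPM in controls (-0.16, SE 0.101, edgeR adjusted p = 0.393). No member was called in either line. In MyLa 1.02% of all tested genes were called higher and 0.861% lower, and in Mac1 5.54% and 2.35%. At an unadjusted p under 0.05 MyLa had 2 members (JUP and PKP4) and Mac1 had 0, against 10.8% of all tested genes in MyLa and 20.5% in Mac1, and DESeq2 called 0 members in both.

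H9 and CCRF-CEM showed smaller differences of PKP4. H9 averaged 59.3 ± 1.67 CPM in knockdown libraries and 62.9 ± 3.61 CPM in controls, and CCRF-CEM 80.8 ± 1.35 CPM and 80.0 ± 3.51 CPM. In MOLT4 the knockdown libraries, at 51.6 and 55.5 CPM, lay below the controls, at 72.2 and 77.1 CPM (log2 difference -0.48, SE 0.101). In the libraries labelled knockdown, PKP4 was thus higher beside higher GATA3 in SUP-T1 and lower beside lower GATA3 in MOLT4. In THP6 it was called higher beside lower GATA3, on the strength of 1 library. The F test over the 6 lines other than MOLT4 gave an edgeR adjusted p of 8.84e-05 for PKP4. Leaving out SUP-T1 gave 0.037, and leaving out SUP-T1 and THP6 knockdown 2 together gave 0.208, so the called difference rests on those libraries.

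PKP2 (ENSG00000057294, chromosome 12, 32790745 to 32896840, minus strand), the plakophilin of simple epithelia and heart, was seen in H9. H9 had 16.5, 13.98 and 15.3 CPM in knockdown libraries, against 24.8 and 22.3 CPM in controls. The groups did not overlap, but the log2 fold change of -0.63 (SE 0.217) was not called (edgeR adjusted p = 0.255). A fit of H9 alone gave the same size with an edgeR adjusted p of 0.0321. MOLT4 controls held 5 and 1 counts of PKP2, and no other library held any.

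PKP3 (ENSG00000184363, chromosome 11, 392614 to 404908, plus strand), which is found in most epithelia, had 81 counts in all libraries together and passed the filter through H9. H9 had 0.662, 0.622 and 0.750 CPM in knockdown libraries, against 0.371 and 0.219 CPM in controls (edgeR adjusted p = 0.344). No other library held more than 3 counts.

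Averaged over the 6 lines other than MOLT4, with counts summed per line and arm, no member had a called response, and 0% of the 17551 genes tested did. DSG2 had a mean log2 fold change of 0.01 (SE 0.103), JUP of -0.01 (SE 0.173) and PKP4 of 0.07 (SE 0.0987), each with an edgeR adjusted p of 1. The other members did not pass the filter on summed counts. Over all genes 407 had an unadjusted p under 0.05 and DESeq2 called 4. GATA3 itself was at -0.64 (SE 0.341, edgeR adjusted p = 1) in this test, which includes SUP-T1.

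Per kilobase of exon, which allows genes to be compared, DSG2 led the members in the controls of every T-ALL line. In THP6 controls DSG2 had 17.3 CPM per kb, PKP4 7.46 and JUP 0.687. In MOLT4 controls DSG2 had 16.0 CPM per kb, JUP 8.53, PKP4 7.84 and PKP1 0.482, whereas in MOLT4 knockdown libraries PKP1 had 10.0 CPM per kb beside 11.9 for DSG2. SUP-T1 controls were the most even, with 3.82 CPM per kb of DSG2, 3.17 of PKP4, 2.82 of JUP and 1.52 of PKP1. H9 showed another set, with 71.0 CPM per kb of JUP, 6.60 of PKP4 and 3.35 of PKP2 in controls, and DSG2 at 0.00295.

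**Figure D4:**
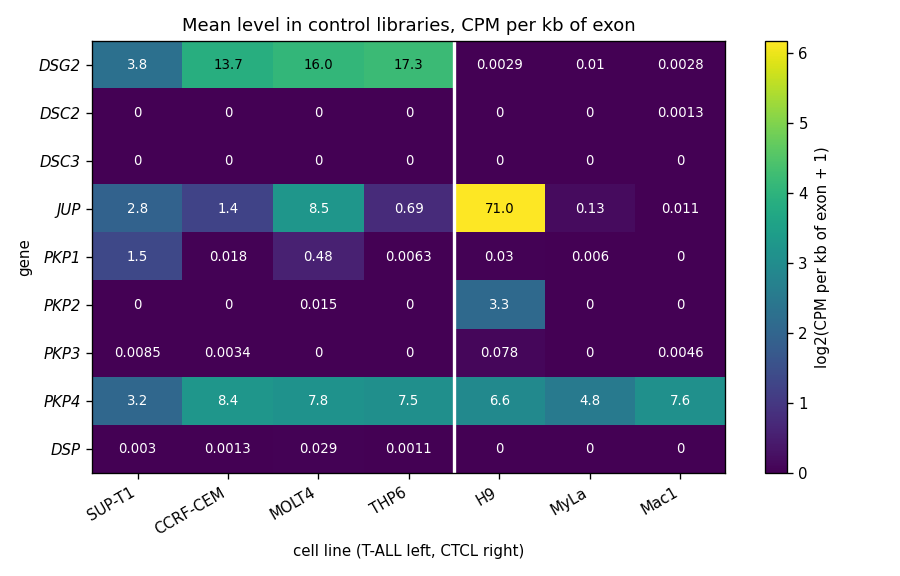
Mean level of the 9 members in control libraries, in CPM per kilobase of exon, for T-ALL lines left and CTCL lines right of the white bar. Colour is log2(CPM per kb + 1) and each cell prints the unlogged value. DSG2 has its 4 highest values in the T-ALL lines, JUP has its highest in H9 (71.0), and the DSC2, DSC3 and DSP rows are at or near 0.

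Members did not share one pattern over the 14 groups of line and arm. On log2(CPM + 1) means, Pearson's r was 0.03 between DSG2 and JUP, 0.37 between DSG2 and PKP1, 0.32 between DSG2 and PKP4 and 0.81 between JUP and PKP2. These are descriptions over groups that share lines and libraries, and the last rests on H9. The tested genes most like DSG2 were BTBD3 (r = 0.998), RASA3 (0.996) and LIMS2 (0.987). All of them averaged under 1 CPM in every CTCL group. Their likeness thus rests on the difference between T-ALL and CTCL lines on which DSG2 was selected. BTBD3 had 81.0 CPM in MOLT4 controls and no count in MyLa controls. Most like JUP were AL596214.1 (0.974), ITGB2-AS1 (0.964) and AC036176.1 (0.961), and most like PKP4 were POFUT1 (0.907), NBAS (0.899) and TM9SF4 (0.895). AL596214.1 averaged at most 1.34 CPM, in H9 knockdown libraries. Most like PKP1 were PPEF1 (0.983), COX4I2 (0.963) and ALDH3B2 (0.961). That likeness rests on SUP-T1 and MOLT4, and so also on the MOLT4 knockdown libraries on which PKP1 was selected. COX4I2 averaged at most 1.12 CPM, in MOLT4 knockdown libraries. PPEF1 averaged 3.85 CPM in MOLT4 knockdown libraries and 0.472 CPM in controls. PKP2 was most like AC079145.1 (0.9999), NPTX1 (0.9998) and PTGER2 (0.9996), which likewise had their highest levels in H9, AC079145.1 at only 0.809 CPM in controls.

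Other desmosomal genes (DSG1, DSG3, DSG4, DSC1, CDSN, PERP and KAZN) had no called change in any of the 6 lines, and 3 of the 7 were tested. None had an unadjusted p under 0.05, and DESeq2 called 0. Over these 6 lines the median log2 fold change of the 3 ran from -0.30 in THP6 to 0.15 in SUP-T1. Over all tested genes it was 0 in each line. Both ends are KAZN near 0, with 4 knockdown and 7 control counts in THP6 and 1 in each arm in SUP-T1. DSG1, a desmoglein of upper epidermis, reached 1 CPM in THP6, at 2.17 ± 0.114 CPM in knockdown libraries (n = 2) and 2.33 ± 0.593 CPM in controls (n = 3). PERP, a membrane protein of desmosomes that p53 and p63 switch on, was highest in Mac1, at 281 ± 26.6 CPM in knockdown libraries and 257 ± 7.73 CPM in controls (n = 2 each). KAZN (kazrin), a periplakin-binding protein, was lower in both MOLT4 knockdown libraries, at 10.3 and 11.7 CPM, than in both controls, at 28.5 and 27.8 CPM, a description.

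**Figure D5:**
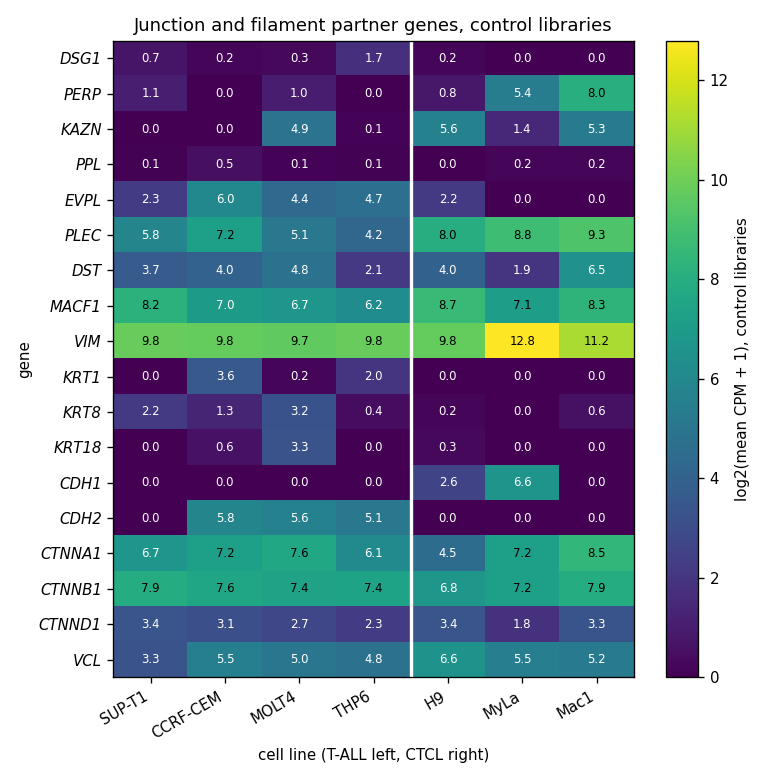
Control levels of junction and filament partner genes as log2(mean CPM + 1), to be read along each row, since values are not scaled by length. T-ALL lines stand left of the white bar. N-cadherin (CDH2) is near 0 in SUP-T1 and the CTCL lines, CDH1 is highest in MyLa, and vimentin (VIM) is high in every line.

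Filament genes are what a desmosomal plaque anchors. Vimentin, the filament protein of most non-epithelial cells, was between 747 and 7119 CPM in every group mean. Of 9 filament genes 7 were tested, with 1 called higher (2.38% of gene-by-line tests) and 2 lower (4.76%) over the 6 lines, all of them KRT1, a keratin of upper epidermis. Over all genes tested, 4.02% of gene-by-line tests were called higher and 3.34% lower, and the shares below are read against these. The list's median ran from -0.79 in CCRF-CEM to 0 in MyLa, Mac1 and THP6 (log2). The lowest is KRT18, with 24 knockdown and 39 control counts, and each 0 belongs to a gene without counts in that line. KRT1 fell in CCRF-CEM, to 3.92 ± 1.08 CPM in knockdown libraries, against 11.1 ± 1.26 CPM in controls (n = 3 each, log2 fold change -1.51, SE 0.282, edgeR adjusted p = 0.00136). It fell in THP6, to 0.434 ± 0.367 CPM in knockdown libraries (n = 2), against 2.87 ± 0.833 CPM in controls (n = 3, -2.70, edgeR adjusted p = 0.000886). It was higher in SUP-T1 libraries labelled knockdown, at 1.24 ± 0.274 CPM, against 0.0322 ± 0.00539 CPM, which is 1 count in each library labelled control (edgeR adjusted p = 3.09e-06). GATA3 was higher in those SUP-T1 libraries too, and lower in the knockdown libraries of CCRF-CEM and THP6. All 3 calls held when any library of the line was left out, with adjusted p up to 0.0464, although the size in THP6 without knockdown 2 was -2.02. Leaving out a THP6 knockdown library leaves 1, whose spread is then taken from the other groups.

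Plakins and linkers (DSP's relatives) gave 3 calls higher and 2 lower over the 6 lines, among 6 tested genes (8.33% and 5.56% of tests, against 4.02% and 3.34% of all genes' tests), with medians from -0.72 in Mac1 to 0.61 in THP6 (log2). The THP6 median includes knockdown 2. EVPL and MACF1 were at 0.355 and 0.875 in THP6 with that library, and at -0.155 and 0.457 without it. EVPL, which encodes envoplakin, fell in CCRF-CEM, to 41.1 ± 3.27 CPM in knockdown libraries against 60.9 ± 9.82 CPM in controls (edgeR adjusted p = 0.0364). It was higher in SUP-T1 libraries labelled knockdown, at 5.99 ± 1.36 CPM, against 3.92 ± 0.440 CPM in those labelled control (edgeR adjusted p = 0.0436). GATA3 was lower in the CCRF-CEM knockdown libraries and higher in those SUP-T1 libraries. The CCRF-CEM call was lost without any library but control 1 (adjusted p up to 0.246), and the SUP-T1 call without any control or knockdown 3 (up to 0.278). DST (dystonin) fell in Mac1, to 56.0 ± 10.5 CPM in knockdown libraries against 88.6 ± 14.03 CPM in controls (n = 2 each, edgeR adjusted p = 0.0309), a call lost without control 1 or knockdown 1 (up to 0.394). PLEC (plectin) had 24.2 and 63.2 CPM in THP6 knockdown libraries, and MACF1, which links actin and microtubules, had 101 and 170 CPM. THP6 controls averaged 18.0 ± 2.34 CPM of PLEC and 74.0 ± 14.01 CPM of MACF1. Both were called higher (edgeR adjusted p = 0.0155 and 0.0356), and both calls were lost without control 1, control 2 or knockdown 2, with log2 fold changes of 0.44 and 0.46 without the last.

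Adherens junction genes gave 5 calls higher and 3 lower over the 6 lines, among 11 tested genes (7.58% and 4.55% of tests, against 4.02% and 3.34% of all genes' tests), with medians from -0.10 in CCRF-CEM to 0.07 in THP6 (log2). NECTIN1, a nectin adhesion receptor, had the lowest p and fell in CCRF-CEM to 79.2 ± 7.36 CPM in knockdown libraries, against 172 ± 17.6 CPM in controls (log2 fold change -1.12, SE 0.125, edgeR adjusted p = 3.32e-07). NECTIN2 fell in Mac1, to 1.17 ± 0.0425 CPM in knockdown libraries against 3.15 ± 0.0272 CPM in controls (-1.42, edgeR adjusted p = 0.000106). VCL (vinculin), which ties junctions to actin, was higher in SUP-T1 libraries labelled knockdown, at 20.4 ± 3.93 CPM, against 8.54 ± 1.11 CPM in those labelled control (1.25, edgeR adjusted p = 8.96e-06). These 3 held when any library of the line was left out, though in Mac1 each such fit has 1 library in an arm and takes its spread from the other groups. In THP6, VCL (0.79) and CTNNA1, the alpha-catenin gene (0.41), were called higher, with 0.06 and 0.00 without knockdown 2, and CTNNA1 was also lost without any control. In CCRF-CEM, CTNND1 (p120-catenin, 10.9 ± 0.729 against 7.71 ± 0.962 CPM in controls) and CTNNB1 (beta-catenin, 212 ± 4.04 against 187 ± 9.504 CPM) were called higher, and both calls were lost without any library but control 3 (adjusted p up to 0.144 and 0.135). CTNND1 fell in Mac1, to 5.27 ± 1.12 CPM in knockdown libraries against 9.14 ± 0.869 CPM in controls, a call lost without control 1 or knockdown 1 (up to 0.236). In MOLT4, CTNND1 stood at 18.5 ± 1.78 CPM in knockdown libraries and 5.52 ± 0.0598 CPM in controls, a description.

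TCF and LEF factors, with which beta-catenin acts in the nucleus, gave 3 calls higher and 3 lower among 4 tested genes over the 6 lines, each 12.5% of tests, against 4.02% and 3.34% of all genes' tests. LEF1 was higher in H9, at 645 ± 10.5 CPM in knockdown libraries (n = 3) against 435 ± 1.70 CPM in controls (n = 2, log2 fold change 0.57, edgeR adjusted p = 0.000198). TCF7 fell in MyLa, to 32.6 ± 1.104 CPM in knockdown libraries against 49.9 ± 2.75 CPM in controls (-0.61, edgeR adjusted p = 0.00223). Both held when any library of the line was left out. LEF1 was also called higher in CCRF-CEM (0.27) and lower in SUP-T1 (-0.24), TCF7 higher in SUP-T1 (0.35) and TCF7L2 lower in Mac1 (-1.57). Each of these 4 was lost without some libraries: LEF1 without CCRF-CEM control 1 or any CCRF-CEM knockdown (adjusted p up to 0.0796), and without any SUP-T1 library but knockdown 1 (up to 0.113). TCF7 was lost without SUP-T1 control 2, control 3 or knockdown 3 (up to 0.0888), and TCF7L2 without Mac1 control 2 or knockdown 2 (up to 0.107).

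Regulators of epithelial and mesenchymal state gave 0 calls higher and 2 lower among 9 tested of 11, which is 0% and 3.70% of tests, against 4.02% and 3.34% of all genes' tests. KLF5 fell in SUP-T1 libraries labelled knockdown, at 2.57 ± 0.131 CPM against 4.24 ± 0.888 CPM in those labelled control (edgeR adjusted p = 0.00393; 0.0503 without control 1). SNAI1 fell in CCRF-CEM, to 1.62 ± 0.0954 CPM in knockdown libraries against 2.89 ± 0.172 CPM in controls (edgeR adjusted p = 0.0165; up to 0.0881 without control 3 or any knockdown). Of the epithelial markers (1 call in each direction, 2.08% of tests), EPCAM was called lower in CCRF-CEM (-0.79; lost without control 1, control 2, knockdown 1 or knockdown 2, adjusted p up to 0.0809) and CLDN4 higher in THP6 (1.19; 0.56 without knockdown 2, and lost without any control). T cell markers had 8.33% of tests called higher and 16.7% lower. They gave 4 calls higher (CD3E in MyLa, PTPRC in Mac1, CD2 and PTPRC in CCRF-CEM) and 8 lower (CD5 and CD7 in CCRF-CEM, and CD3D, CD3E, CD5, CD7, LCK and PTPRC in SUP-T1). Of these, CD3E in MyLa was lost without control 2 or knockdown 3, CD3E in SUP-T1 without control 3 or knockdown 3, and PTPRC in SUP-T1 without control 2 or knockdown 1 (adjusted p up to 0.0843). In THP6, 6 list genes were called with all libraries and 1, KRT1, without knockdown 2.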

How the data were processed

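Values are expected counts per gene that the authors made, per the submitters' processing notes, with cutadapt 2.3, STAR 2.7.8a and RSEM 1.3.3 on GRCh38. The deposited values were whole, so rounding changed none. Which annotation release was counted, and whether by strand, was not given in the sources used here. Coordinates, exon lengths and overlaps came from GENCODE 29, which held 58516 of 60628 identifiers.

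The members and gene lists, and the tests and alternatives on them, were chosen with earlier results of these data known. Titles gave the line and arm of each library (14 groups), also for SUP-T1, whose cell line field carries running numbers. One model over all 36 libraries was fitted in edgeR 4.0.16 (R 4.3.3) after TMM scaling, and filterByExpr left 21138 genes. Quasi-likelihood tests per line were adjusted by Benjamini-Hochberg over all of these, at 0.05. MOLT4 was not tested, since PKP1 was picked from it. Sums per line and arm were tested over 6 lines with line as covariate. CPM uses the TMM-scaled total, and log2 means a pseudocount of 1 CPM. Alternatives were DESeq2 1.42.0, its size factors, no filter, 10 counts in 2 libraries, each line alone, replicate number as a block, and leaving out each library or line; an arm left with 1 library was assumed to vary like the other groups. A fit without SUP-T1 and THP6 knockdown 2 together, and leaving out libraries for list genes, were added after values were seen. Tests were also tried on simulated data.

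No pair of replicates was identical, and their counts differed by 3.89 to 170 in units of chi-square per gene. Named were GATA3, all members, up to 4 genes per list called in the most lines plus called genes needed to read small counts, and the 3 genes most correlated with each member that reached 1 CPM; MOLT4 values, list genes at high levels and T cell markers were named after values were seen. Figures used matplotlib 3.10.9.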

Additional observations from a re-analysis of the deposited data

Results flagged for a closer look

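The knockdown response of JUP differed between the 6 lines other than MOLT4 by an F test of the difference itself (edgeR adjusted p = 0.000329). This test was passed by 2 of 6 tested members and by 27.1% of all tested genes. PKP2 had no count in these lines other than H9, so its test could not pass. PKP3 was near 0 outside H9, and DSG2 and PKP1 were under 1 CPM in several of these lines. The 2 of 6 is therefore not to be weighed against the 27.1%. JUP was lower in CCRF-CEM (log2 fold change -0.86), was at 0.36 in H9 and 0.69 in MyLa without a call, and all 38 alternative fits of the difference kept an adjusted p of at most 0.0018. The response of PKP4 also differed between these lines (edgeR adjusted p = 8.84e-05), with 0.56 in SUP-T1, 0.30 in THP6 and values from -0.19 to 0.01 in the other 4 lines. Without SUP-T1 the PKP4 difference had an adjusted p of 0.037, and without SUP-T1 and THP6 knockdown 2 together 0.208. The libraries of SUP-T1 are those whose GATA3 level runs against their labels, and the part of that in the PKP4 difference was not tested.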

How the results depend on the processing

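Calls of members in CCRF-CEM (1), MyLa (0) and Mac1 (0) did not change under any alternative run. In H9 no filter and the line alone each gave 1 call (PKP1 higher, PKP2 lower) against 0. In THP6 no filter, the replicate block and the line alone each gave 0 calls against 1, and the block changed no other call. Leaving out 1 library gave 1 to 2 calls in SUP-T1 and 0 to 1 in THP6. Members whose response differed between lines stayed at 2 of 6 tested (27.1% of all tested genes passed) when 1 library was left out. The 6 include PKP2, whose test could not pass. Without SUP-T1 and THP6 knockdown 2 together the number was 1 (JUP). Leaving out 1 library moved MOLT4 values to -0.58 to -0.29 for DSG2 and 4.28 to 4.49 for PKP1. Small DSG2 values changed sign: -0.023 to 0.122 in SUP-T1 (lowest without knockdown 3) and -0.052 to 0.037 in THP6 (0.037 without control 1, 0.031 without knockdown 2). With DESeq2, or its size factors, DSG2 was 0.003 in THP6 and PKP4 -0.001 in CCRF-CEM. The cause of these shifts was not tested. Same-numbered libraries had residual correlations from -0.143 to 0.263, with 7 of 17 over 0.1, so the numbers were not taken as pairs. Members near 0 are limited by depth, since a count of 0 allows up to 0.162 CPM.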
